A study of Mus musculus with 9 samples.

Results

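The endothelin system of the mouse ovary was described from 7 genes, chosen by name: the ligand genes Edn1, Edn2 and Edn3, the receptor genes Ednra and Ednrb, and the converting-enzyme genes Ece1 and Ece2. They are 7 of 24153 gene symbols matched in the deposited table, and each was taken from its row with the highest mean level. Whole ovaries came from female C57BL/6J mice aged 15 weeks, in 3 groups of 3 animals. HFOB mice became obese over 10 weeks on a diet with 60% fat, HFLN mice stayed lean over the same 10 weeks on the same diet, and control mice ate standard chow with 16% fat for 10 weeks. HFOB and HFLN membership followed from how each animal responded to the diet, not from assignment. The sources used here do not state the oestrous stage at collection.

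Endothelins are short peptides that constrict blood vessels and contract smooth muscle. Each is cut from a longer precursor, first by furin-type proteases and then by an endothelin-converting enzyme, and acts through a G protein-coupled receptor, EDNRA or EDNRB. In the rodent ovary EDN2 is known as a peptide that granulosa cells make in a brief burst as a follicle is about to ovulate, and EDNRA on the smooth muscle of the follicle wall is known to mediate contraction.

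Levels are FPKM values deposited by the authors, scaled for transcript length and for library size, so they can be compared between genes of different length. There is 1 FPKM per group, with a deposited lower and upper bound whose confidence level is not given, and levels in each animal were not analysed here. No p-value, SD or count of animals showing a difference can therefore be given. Log2 folds were taken on the log2(FPKM + 1) scale, which understates differences of low genes. A gene passed when its fold on that scale was at least 2 and its interval in one group lay wholly clear of that in the other. The members were picked with results of these data known, so everything below on the members is a description. All 7 reached 1 FPKM in some group and were marked OK in all 3, so none was lost to the filter on low values.

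Edn2 was far lower in both diet groups than in control, and it was the only one of the 7 genes to pass in any comparison. It measured 2.34 FPKM in HFOB (deposited bounds 0.549 and 4.13), 3.27 in HFLN (0.893 and 5.64) and 52.1 in control (23.3 and 80.9). Both diet groups lay low and close together, and neither of their intervals reached that of control. As a plain ratio of FPKM, the level was 22.3-fold lower in HFOB than in control and 15.9-fold lower in HFLN than in control. On the log2(FPKM + 1) scale, where the fold is smaller, the log2 folds were -3.99 in HFOB and -3.64 in HFLN. At their nearest, the bounds of HFOB and control were 5.64-fold apart and those of HFLN and control 4.13-fold apart. Among protein-coding rows Edn2 had the second lowest log2 fold of 13652 in HFOB against control and the second lowest of 13655 in HFLN against control. Between HFOB and HFLN the intervals overlapped, with a log2 fold of -0.35. Both comparisons with control use the same control value, so they are not independent of each other. In whole ovary, fewer cells of a type and less RNA per cell cannot be told apart.

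The other ligand genes did not share this pattern. Edn1, the ligand best known from endothelium, measured 4.72 FPKM in HFOB (bounds 1.82 and 7.62), 4.82 in HFLN (1.79 and 7.86) and 4.01 in control (1.31 and 6.72). All 3 intervals overlapped, with log2 folds of 0.19 for HFOB and 0.22 for HFLN against control. Edn3, known for its part in the development of melanocytes and gut neurons, measured 2.46 FPKM in HFOB (1.02 and 3.90), 2.68 in HFLN (1.12 and 4.24) and 1.87 in control (0.681 and 3.06). Its intervals overlapped as well, with log2 folds of 0.27 for HFOB and 0.36 for HFLN against control. Both genes had their lowest value in control, where Edn2 had its highest.

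The make-up of the ligand transcripts therefore differed between the diet groups and control. The FPKM of the 3 ligand genes summed to 9.52 in HFOB, 10.8 in HFLN and 58.0 in control. Edn2 made up 24.6% of that sum in HFOB, 30.3% in HFLN and 89.9% in control. Edn1 was the most abundant ligand gene in both diet groups, at 49.6% of the sum in HFOB and 44.8% in HFLN, against 6.92% in control. Edn3 made up 25.8% in HFOB, 24.9% in HFLN and 3.22% in control. Without Edn2 the ligand sum was 7.18 FPKM in HFOB, 7.50 in HFLN and 5.88 in control, so the difference in the full sum lay in Edn2. The receptor genes summed to 24.0 FPKM in HFOB, 23.7 in HFLN and 23.3 in control. Per FPKM of receptor there were thus 0.397 FPKM of ligand in HFOB, 0.454 in HFLN and 2.49 in control. These sums carry no deposited bounds.

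**Figure D1:**
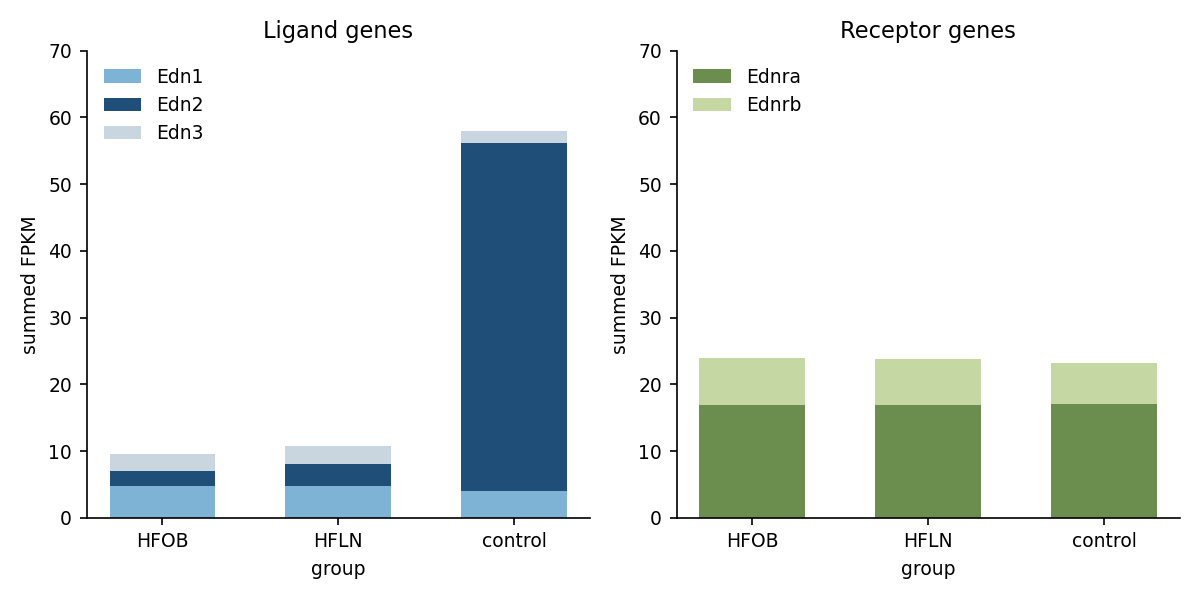
Stacked bars of FPKM per group for the 3 ligand genes (left) and the 2 receptor genes (right), on the same axis, which starts at 0; there is 1 value per gene and group and no error bar. The ligand bars reach 9.52 FPKM in HFOB, 10.8 in HFLN and 58.0 in control, and the receptor bars lie between 23.3 and 24.0.

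The receptor genes were at nearly the same level in all groups. Ednra, the receptor that prefers EDN1 and EDN2 over EDN3, measured 16.9 FPKM in HFOB (bounds 10.1 and 23.8), 16.9 in HFLN (10.0 and 23.7) and 17.0 in control (10.3 and 23.7). Its log2 folds were -0.01 for HFOB against control, -0.01 for HFLN against control and 0.01 for HFOB against HFLN. In HFOB against control, 96.0% of protein-coding rows had a wider log2 fold than Ednra. Ednrb, which binds all endothelins alike and also clears them from the circulation, measured 7.06 FPKM in HFOB (4.16 and 9.95), 6.87 in HFLN (4.07 and 9.67) and 6.25 in control (3.57 and 8.93). The 3 Ednrb intervals overlapped, with log2 folds of 0.15 for HFOB and 0.12 for HFLN against control. Ednra was the more abundant receptor gene throughout, at 70.6% of the receptor sum in HFOB, 71.0% in HFLN and 73.1% in control. A second, weaker row with the same Ednra transcript identifier and the same span held 2.03 FPKM in HFOB (0.450 and 3.61), 1.62 in HFLN (0.0875 and 3.16) and 1.31 in control (0.0499 and 2.57). The table does not say what sets that row apart from the first.

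Ece1 was the most abundant of the 7 genes in every group. It encodes the main enzyme that frees active endothelin from its precursor, and it measured 70.2 FPKM in HFOB (bounds 44.6 and 95.7), 73.4 in HFLN (46.9 and 99.9) and 76.5 in control (47.8 and 105). The intervals nearly coincided, with log2 folds of -0.12 for HFOB and -0.06 for HFLN against control. Relative to the ligand sum, Ece1 stood at 7.37 in HFOB, 6.81 in HFLN and 1.32 in control. The row of Ece2, a related enzyme best known from neural tissue, measured 12.2 FPKM in HFOB (4.92 and 19.5), 10.7 in HFLN (4.38 and 17.1) and 13.3 in control (5.62 and 21.0). This row merges Ece2 with its neighbour Eef1akmt4, a lysine methyltransferase gene, and with a readthrough transcript of both, so the part of Ece2 in it cannot be separated. Its log2 folds were -0.11 for HFOB and -0.28 for HFLN against control, with overlapping intervals.

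**Figure D2:**
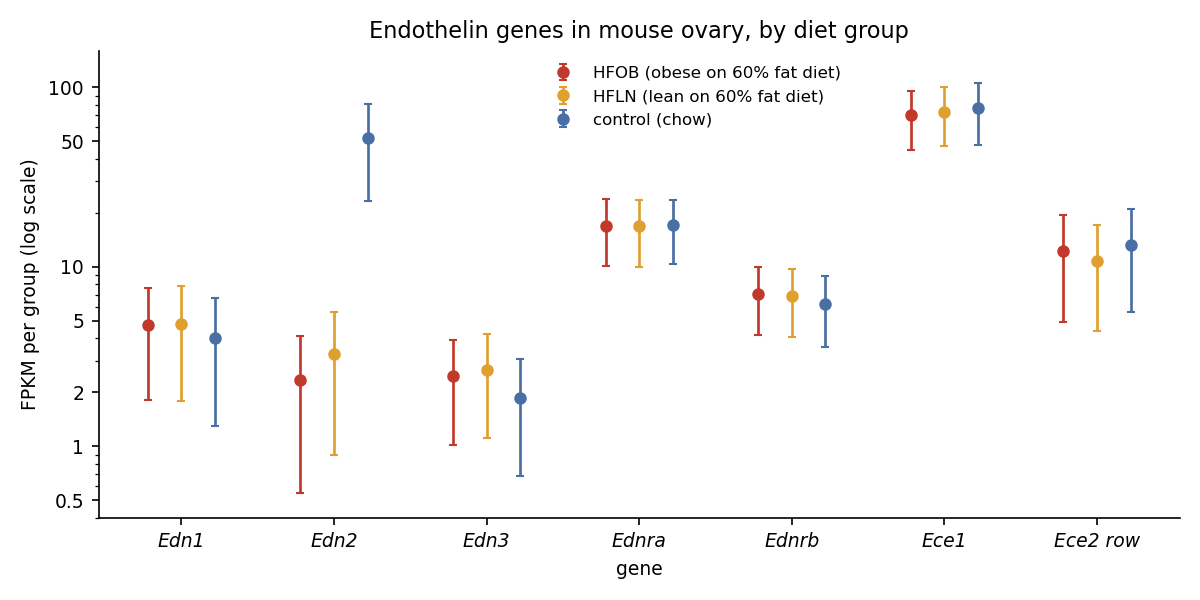
FPKM of the 7 endothelin genes on a log axis, with HFOB, HFLN and control from left to right within each gene. Points are the authors' group values and bars run between the deposited bounds; Edn2 lies at 2.34, 3.27 and 52.1 FPKM in these groups, while the bars of every other gene overlap across the groups.

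In order of level, control ran Ece1, Edn2, Ednra, the Ece2 row, Ednrb, Edn1 and Edn3. HFLN ran Ece1, Ednra, the Ece2 row, Ednrb, Edn1, Edn2 and Edn3, and HFOB had the same order with Edn2 last. In HFOB and HFLN the interval of Ece1 lay clear of the gene below it, and every other pair of neighbours in the order overlapped. In control all neighbouring pairs overlapped, Ece1 and Edn2 among them. Edn2 exceeded 86.1% of protein-coding rows in control, but 13.6% of them in HFOB and 17.9% in HFLN.

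The count of 1 member in 7 can be set beside the whole table. In HFOB against control 0.366% of rows passed in either direction and 0.272% passed as lower. In HFLN against control 0.283% passed in either direction and 0.219% as lower. In HFOB against HFLN 0.195% of rows passed and 0 of the 7 members did. Since Edn2 was known to pass when the genes were chosen, nothing is read from its share. The 6 other members had log2 folds from -0.12 to 0.27 in HFOB against control and from -0.28 to 0.36 in HFLN against control. Their median absolute log2 fold was 0.14 in HFOB and 0.17 in HFLN against control, against 0.09 and 0.10 over all protein-coding rows in the same comparisons.

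The intervals set how small a difference could have been seen. The upper bound lay 36.1% to 37.5% above the value for Ece1, but 58.2% to 63.5% above it for Edn3 and 61.4% to 67.4% for Edn1. In the diet groups the intervals were widest for Edn2, at 76.5% in HFOB and 72.7% in HFLN. In control Edn2 stood at 55.3%, and Edn1, Edn3 and the Ece2 row were wider. Intervals as wide as those of Ece1 part only when the values differ 2.16-fold, and the figure is 2.34-fold for Ednra, 2.42-fold for Ednrb, 3.86-fold for the Ece2 row, 4.02-fold for Edn3, 4.54-fold for Edn1 and 5.28-fold for Edn2. These folds use the mean width over the 3 groups. For Edn2 the HFOB and HFLN intervals are both wider than that mean. In that comparison they would part only at a fold larger than 5.28. Smaller differences of these genes would not show as separate intervals, so overlap does not show that the levels were equal.

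**Figure D3:**
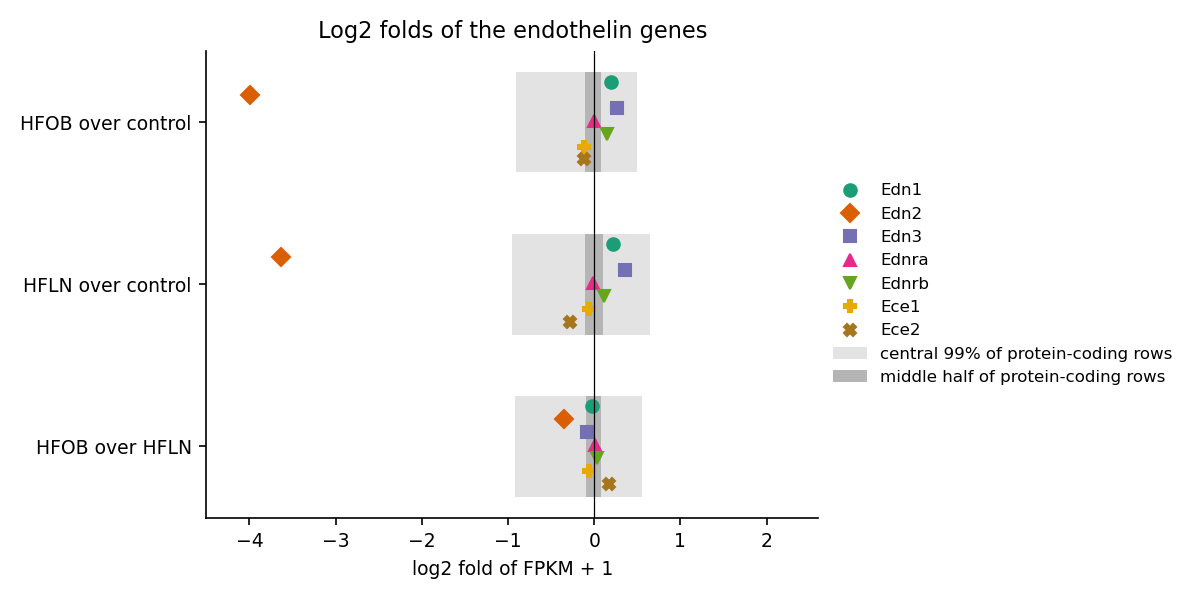
Log2 folds of FPKM + 1 for the 7 genes in the 3 comparisons, with grey bars for the central 99% and dark grey bars for the middle part between the quartiles of all protein-coding rows. Edn2 sits at -3.99 and -3.64 against control, outside bars that end at -0.91 and -0.96, and at -0.35 between HFOB and HFLN.

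Where the reads of Edn2 could come from is set by its row. RefSeq places Edn2 on the plus strand of chromosome 4, from 120161206 to 120167360 in GRCm38.p6, the assembly that the authors' build mm10 is made from. The row holds 2 transcription starts and begins 8487 bases before the annotated gene, so it includes an assembled transcript that starts upstream. A non-coding gene annotated on the opposite strand, Gm36134, spans Edn2 as well, and since the strand setting of the counting is not given, reads of the pair cannot be told apart. Annotated non-coding genes also overlap Ednra, Ednrb and Ece1, which makes 4 of the 7 members. The other members lie on chromosome 13 from 42301476 to 42307990 (Edn1), chromosome 2 from 174760619 to 174784042 (Edn3), chromosome 8 from 77663029 to 77724452 (Ednra), chromosome 14 from 103814615 to 103844508 (Ednrb), chromosome 4 from 137862237 to 137965229 (Ece1) and chromosome 16 from 20629851 to 20645915 (Ece2).

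Genes beside Edn2 on chromosome 4 did not differ as it did. Within 500 kb the table held 7 protein-coding genes, of which 5 had at least 1 FPKM, and 0 of these passed. Hivep3, a zinc-finger DNA-binding protein gene 23161 bases away and the nearest of them, measured 10.1 FPKM in HFOB, 10.5 in HFLN and 12.5 in control. Foxo6, a forkhead transcription factor gene on the other side, measured 5.64 FPKM in HFOB, 5.59 in HFLN and 5.47 in control. Cited4, a transcriptional coactivator gene, had the lowest log2 folds of the 5, at -0.37 for HFOB and -0.42 for HFLN against control, with overlapping intervals.

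**Figure D4:**
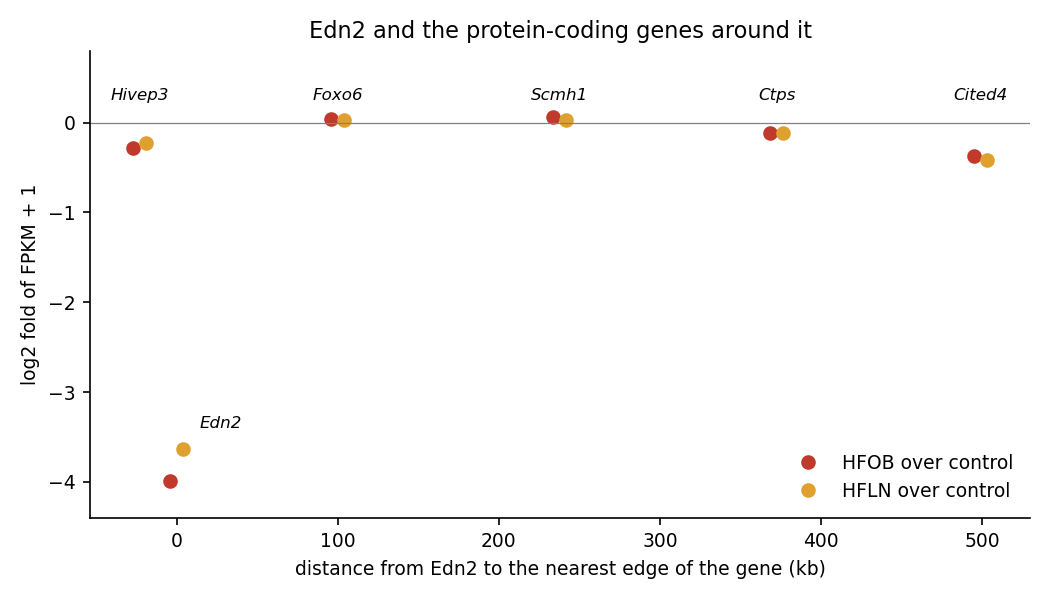
Log2 fold of FPKM + 1 against the distance from Edn2 to the nearest edge of each protein-coding gene with at least 1 FPKM within 500 kb; the points of a gene are drawn slightly apart sideways. Edn2 lies at -3.99 in HFOB and -3.64 in HFLN, and the 5 neighbours lie between -0.42 and 0.07.

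The 250 bases upstream of the annotated start of each ligand gene are shown because these 3 genes of a family differed so unlike one another. They are RefSeq sequences of GRCm38.p6 and were searched on both strands for the cores of hypoxia-response elements (ACGTG, or else the form GCGTG) and for the AP-1 site that FOS and JUN proteins bind (TGANTCA). Capitals mark a match. None of these motifs overlaps another in the 3 windows.
Edn2, chr4:120160956-120161205, plus strand: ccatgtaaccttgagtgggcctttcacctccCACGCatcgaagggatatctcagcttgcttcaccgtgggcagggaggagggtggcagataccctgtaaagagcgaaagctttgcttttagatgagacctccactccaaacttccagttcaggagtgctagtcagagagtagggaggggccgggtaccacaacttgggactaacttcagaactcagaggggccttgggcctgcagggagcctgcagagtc
Edn1, chr13:42301226-42301475, plus strand: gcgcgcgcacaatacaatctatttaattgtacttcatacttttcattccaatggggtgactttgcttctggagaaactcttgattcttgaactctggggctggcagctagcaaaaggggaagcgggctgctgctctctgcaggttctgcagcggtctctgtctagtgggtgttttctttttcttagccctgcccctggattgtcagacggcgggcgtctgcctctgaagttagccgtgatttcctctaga
Edn3, chr2:174760369-174760618, plus strand: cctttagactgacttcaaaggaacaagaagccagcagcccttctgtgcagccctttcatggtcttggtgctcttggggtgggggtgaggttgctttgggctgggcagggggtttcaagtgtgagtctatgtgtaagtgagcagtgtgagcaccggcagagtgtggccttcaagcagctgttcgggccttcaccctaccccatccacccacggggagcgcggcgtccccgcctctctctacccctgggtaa
The Edn2 window held 1 GCGTG, read on the opposite strand from 219 to 215 bases before the start, and the windows of Edn1 and Edn3 held no match. These cores were not particular to Edn2 among the members. GCGTG also occurred upstream of Ednrb and Ece1, and ACGTG upstream of Ece1 and Ece2, while Ednra held no match. Of 21263 such windows of protein-coding genes, 33.8% held GCGTG, 17.8% held ACGTG and 6.13% held TGANTCA. A match here is a description of letters, and the absence of one says nothing about sites outside the window, including those beside the upstream start in the Edn2 row.

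Which genes followed a pattern most like that of Edn2 was asked over the 3 group values. Likeness was the distance between pairs of log2 folds, HFOB and HFLN against control, among 9430 other protein-coding genes with at least 5 FPKM in control. The nearest gene was Odaph, which encodes a phosphoprotein of tooth development, at a distance of 1.23. On the log2(FPKM + 1) scale the control level of a gene limits how low its fold can go. Genes near 5 FPKM in control could not reach the folds of Edn2, so the distances do not show how closely the changes in FPKM matched. Odaph measured 0.146 FPKM in HFOB, 0.240 in HFLN and 8.24 in control. Next came Sprr1a, a gene of the cornified envelope of epithelia, at a distance of 1.80 with 0.0977 FPKM in HFOB, 0.664 in HFLN and 44.8 in control. Tnfaip6, whose product binds hyaluronan in the expanding cumulus, followed at 2.42 with 0.848 FPKM in HFOB, 1.10 in HFLN and 7.47 in control. The early-response genes Arc and Fosb and the Wnt ligand gene Wnt7b completed the first 6, at distances of 2.69, 2.86 and 2.87. That all 6 were highest in control follows from how they were chosen. The other endothelin genes lay at distances of 5.13 to 5.84. With 3 values per gene and a shared control, likeness of this kind is weak.

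The upstream windows of the first 3 of these genes are shown to set them beside that of Edn2, with the same motifs in capitals.
Odaph, chr5:91987223-91987472, plus strand: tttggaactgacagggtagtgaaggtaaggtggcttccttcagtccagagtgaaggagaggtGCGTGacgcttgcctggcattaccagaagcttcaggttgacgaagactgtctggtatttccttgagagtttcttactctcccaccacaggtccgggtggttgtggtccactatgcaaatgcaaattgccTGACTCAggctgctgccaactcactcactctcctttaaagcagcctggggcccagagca
Sprr1a, chr3:92485882-92486131, minus strand: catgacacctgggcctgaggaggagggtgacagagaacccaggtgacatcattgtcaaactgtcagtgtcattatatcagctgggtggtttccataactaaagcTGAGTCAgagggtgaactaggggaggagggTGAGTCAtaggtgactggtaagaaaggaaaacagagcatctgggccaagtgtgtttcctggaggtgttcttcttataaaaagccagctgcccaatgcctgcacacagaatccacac
Tnfaip6, chr2:52037863-52038112, plus strand: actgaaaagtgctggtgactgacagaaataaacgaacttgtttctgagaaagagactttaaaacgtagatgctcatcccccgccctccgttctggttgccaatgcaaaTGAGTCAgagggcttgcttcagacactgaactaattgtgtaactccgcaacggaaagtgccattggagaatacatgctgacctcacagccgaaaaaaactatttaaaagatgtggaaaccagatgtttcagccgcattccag
All 3 windows held TGANTCA, 2 sites in Sprr1a and 1 each in Odaph and Tnfaip6, and Odaph also held GCGTG from 188 to 184 bases before its start. In 10 windows of the 7 endothelin genes, 4 of them from Ece1, TGANTCA occurred in 0. Among windows of protein-coding genes, 6.13% held TGANTCA. The first 3 genes were picked by their values in these data and met the filter through control, where they are high. The motifs were also picked after the values were seen, and no factor was measured. Nothing is therefore read from the difference between these windows and those of the endothelin genes.

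The proteases that act on endothelins before and beside the converting enzymes showed no passing gene. Of 10 listed genes 8 had at least 1 FPKM. In HFOB against control 4 were higher, 4 lower and 0 passed, with a median log2 fold of 0.01, against -0.01 over all protein-coding rows. In HFLN against control 5 were higher, 3 lower and 0 passed, with a median of 0.06, against 0.00 over all protein-coding rows. Mmel1, a neprilysin-like peptidase gene, had the widest fold in HFLN, with 3.43 FPKM in HFOB, 6.96 in HFLN and 3.78 in control and intervals that overlapped. Cma1, a mast-cell chymase that can cut the EDN1 precursor, measured 3.65 FPKM in HFOB, 4.31 in HFLN and 3.16 in control. Pcsk5, a furin-type protease gene, measured 19.8 FPKM in HFOB, 17.7 in HFLN and 18.2 in control.

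The signalling genes below the receptors were measured in full, and none of the 26 passed in any comparison. Against control, 17 were higher and 9 lower in HFOB, with a median log2 fold of 0.08, and 20 were higher and 6 lower in HFLN, with a median of 0.09. Gnaq, the G protein subunit that couples endothelin receptors to phospholipase C, measured 12.8 FPKM in HFOB, 12.1 in HFLN and 9.63 in control. Rgs2, which dampens signalling through that subunit, measured 95.5 FPKM in HFOB, 85.3 in HFLN and 76.1 in control. Plcb2, a phospholipase C gene, measured 2.08 FPKM in HFOB, 2.91 in HFLN and 1.67 in control, and Itpr2, an internal calcium channel gene, measured 9.51 FPKM in HFOB, 10.2 in HFLN and 7.61 in control. All of these intervals overlapped.

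Genes listed as possible regulators of Edn2 in the follicle were mostly lower in the diet groups, and none passed. Whether each of them acts on Edn2 was not tested. Of 11 genes, 9 were lower in HFOB than in control, with a median log2 fold of -0.24, and 8 were lower in HFLN, with a median of -0.23. Cebpb, a transcription factor that luteinizing hormone induces in granulosa cells, measured 122 FPKM in HFOB (bounds 55.9 and 187), 84.5 in HFLN (31.9 and 137) and 186 in control (42.8 and 329). Pparg, a nuclear receptor of lipid metabolism, measured 24.6 FPKM in HFOB (15.1 and 34.1), 24.8 in HFLN (15.2 and 34.3) and 33.6 in control (21.6 and 45.5). Pgr, the progesterone receptor that granulosa cells need for ovulation, measured 1.75 FPKM in HFOB (0.749 and 2.75), 1.48 in HFLN (0.559 and 2.39) and 2.25 in control (1.03 and 3.47). Hif1a, a subunit of the hypoxia-inducible factor, measured 27.4 FPKM in HFOB, 29.9 in HFLN and 31.2 in control. The intervals of these 4 genes overlapped. Not all members lay lower: Arnt, the partner subunit of the hypoxia-inducible factors, measured 19.5 FPKM in HFOB, 19.9 in HFLN and 18.2 in control. Nr5a2, a nuclear receptor of granulosa cells, measured 80.9 FPKM in HFOB, 85.8 in HFLN and 79.5 in control. Lhcgr, the luteinizing hormone receptor gene, was lower than control in HFOB and higher in HFLN, at 104 FPKM in HFOB, 143 in HFLN and 134 in control.

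Of 12 genes that the hypoxia-inducible factor is known to switch on, 9 were lower in HFOB than in control and 9 lower in HFLN than in control. The medians were -0.43 in HFOB and -0.26 in HFLN, against -0.01 and 0.00 over all protein-coding rows, and none passed. The 3 others, Pdk1, Car9 and P4ha1, were higher in both. Their log2 folds ran from 0.03 to 0.21 in HFOB and from 0.10 to 0.19 in HFLN. Slc2a1, a glucose transporter gene, measured 18.7 FPKM in HFOB (11.6 and 25.9), 20.0 in HFLN (12.5 and 27.4) and 31.8 in control (19.2 and 44.3). Ankrd37 measured 2.85 FPKM in HFOB, 3.14 in HFLN and 5.38 in control, with lower bounds of 0 in all 3.

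The ovulation list, which leaves out Edn2, held 15 genes, 12 of them with at least 1 FPKM. In HFOB against control 9 were lower and 2 passed, Tnfaip6 and the matrix protease gene Adamts1, where 0.366% of all rows passed. The median log2 fold was -0.44, against -0.01 over all protein-coding rows. In HFLN against control 9 were lower and Tnfaip6 passed, where 0.283% of all rows passed. The median was -0.36, against 0.00 over all protein-coding rows. The 3 higher genes were Ptx3 (0.57), Star (0.19) and Ereg (0.02) in HFOB, and Star (0.64), Ptx3 (0.31) and Areg (0.11) in HFLN. Ptgs2, Has2 and Btc stayed below 1 FPKM. Adamts1 measured 13.9 FPKM in HFOB (8.97 and 18.9), 19.2 in HFLN (12.5 and 25.8) and 31.0 in control (20.6 and 41.3). This list was chosen with earlier results of these data known, and it shares Cebpb, Pgr and Runx1 with the possible regulators above.

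Other vasoactive systems gave no passing gene among 16 measured of 19. In HFOB against control 13 were higher and 3 lower, with a median log2 fold of 0.08, and in HFLN against control 10 were higher and 6 lower, also with a median of 0.08. Nos2, an inducible nitric oxide synthase gene, measured 19.3 FPKM in HFOB, 15.6 in HFLN and 14.4 in control. Npr3, which clears natriuretic peptides, measured 2.87 FPKM in HFOB, 2.13 in HFLN and 1.96 in control. The oxytocin receptor gene Oxtr measured 11.3 FPKM in HFOB, 14.3 in HFLN and 10.2 in control, and the thromboxane receptor gene Tbxa2r 3.15 in HFOB, 3.80 in HFLN and 2.93 in control.

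**Figure D5:**
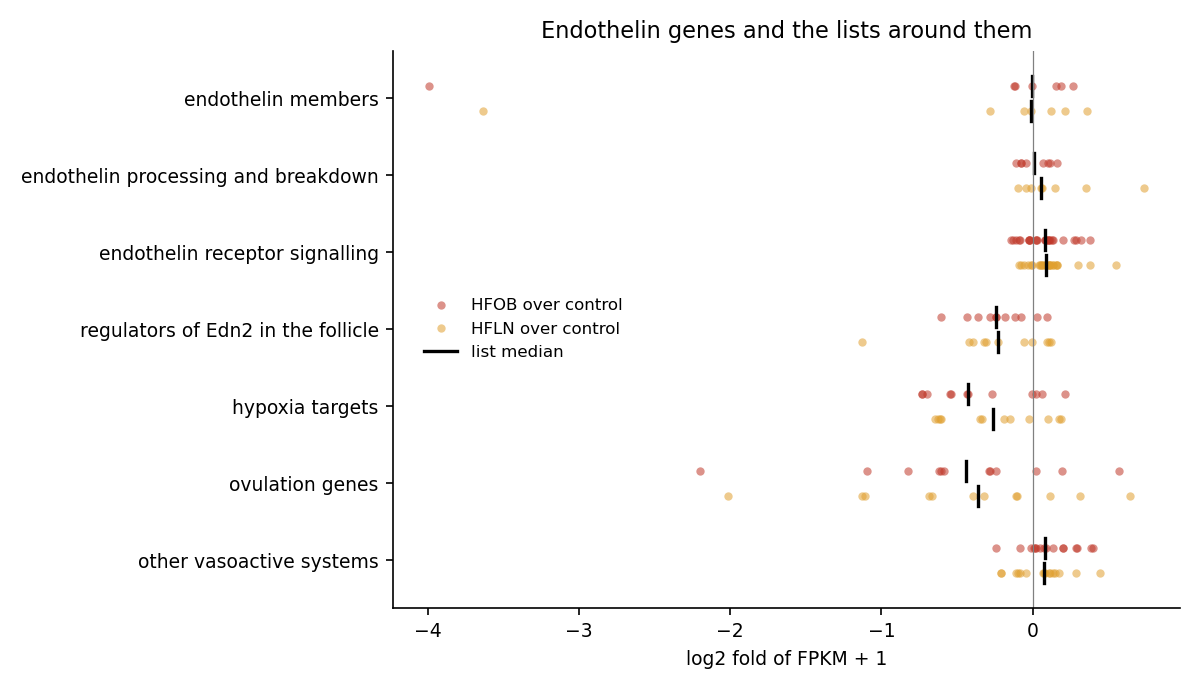
Log2 folds of FPKM + 1 for genes with at least 1 FPKM in the endothelin set and 6 lists around it, with HFOB over control above HFLN over control in each list and a black bar at the list's median. The medians of the possible regulators of Edn2, the hypoxia targets and the ovulation genes lie between -0.44 and -0.23. Those of the other lists lie between -0.01 and 0.09.

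Markers of the cell types in and around the ovary are given beside these values. Granulosa markers, 7 in number, summed to 1947 FPKM in HFOB, 1843 in HFLN and 2222 in control, most of it Inha, and 4 were lower in HFOB and 6 in HFLN than in control. The widest were Cyp19a1, the aromatase gene, at log2 folds of -0.72 in HFOB and -0.49 in HFLN, and the inhibin genes Inhba, at -0.57 in HFOB, and Inha, at -0.33 in HFLN. The 4 theca markers summed to 3380 FPKM in HFOB, 3295 in HFLN and 4034 in control, but Cyp11a1, which other steroid-making cells also express, held 3120 of this in HFOB, 3054 in HFLN and 3608 in control, with lower bounds of 0. Cyp17a1, an enzyme of androgen synthesis, measured 191 FPKM in HFOB, 183 in HFLN and 346 in control, with overlapping intervals. The row that merges Insl3 with Jak3 had log2 folds of -0.29 in HFOB and -0.65 in HFLN, with a lower bound of 0 in control. Ptch1 was nearly level, at 19.5 FPKM in HFOB, 19.0 in HFLN and 19.0 in control. Against control 1 theca marker was higher and 3 lower in HFOB, and all 4 were lower in HFLN. The 4 luteal markers summed to 3157 FPKM in HFOB, 3092 in HFLN and 3360 in control, nearly all of it Hsd3b1, whose lower bounds were 0. Lhcgr, Prlr and Hsd3b1 had the widest log2 folds among them, between -0.36 and 0.12 against control. None of these markers passed.

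Endothelial markers summed to 231 FPKM in HFOB, 227 in HFLN and 233 in control, and the widest log2 folds, those of Vwf, Cdh5, Emcn and Pecam1, lay between -0.20 and 0.21. The 8 smooth-muscle markers summed to 1495 FPKM in HFOB, 1309 in HFLN and 1485 in control. Of this, Acta2 held 649 in HFOB (bounds 43.4 and 1254), 574 in HFLN and 654 in control. Against control 5 were higher and 3 lower in HFOB, and 3 higher and 5 lower in HFLN. The widest log2 folds were Lmod1 at 0.42 and Des at 0.31 in HFOB, and Tagln at -0.28 and Actg2 at -0.27 in HFLN. Tagln lay at -0.06 and Actg2 at -0.11 in HFOB, and Lmod1 at 0.15 and Des at 0.01 in HFLN. Oocyte markers summed to 176 FPKM in HFOB, 168 in HFLN and 165 in control, with Gdf9, Zp2 and Bmp15 the widest in log2 fold. Oviduct markers summed to 341 FPKM in HFOB, 514 in HFLN and 418 in control, of which Ovgp1 held 307 in HFOB, 432 in HFLN and 369 in control. All 5 were lower in HFOB and higher in HFLN than in control, with the widest log2 folds in Tmem212, Foxj1 and Sec14l3. The surface-epithelium markers summed to 383 FPKM in HFOB, 472 in HFLN and 394 in control, with Krt19 the most abundant and Krt7, Krt18 and Cdh1 the widest in log2 fold. The 6 adipocyte markers summed to 203 FPKM in HFOB, 129 in HFLN and 131 in control. Of this, Fabp4 held 139 in HFOB, 87.2 in HFLN and 77.2 in control. Against control 4 were higher and 2 lower in HFOB, and 2 higher and 4 lower in HFLN. Retn measured 16.4 FPKM in HFOB, 12.8 in HFLN and 19.5 in control, and Adipoq 21.5 in HFOB, 11.9 in HFLN and 14.7 in control. The leptin gene Lep passed as higher in HFOB than in control and than in HFLN. Of the immune markers, Cd68 shares a row with the translation factor gene Eif4a1, so their sum is not given. Adgre1, a macrophage marker, measured 5.04 FPKM in HFOB, 4.77 in HFLN and 4.15 in control, and Ptprc, a marker of all leukocytes, 3.17 in HFOB, 3.72 in HFLN and 2.61 in control. No marker was at 0 in all groups, and the part of these cell types in the Edn2 values was not tested.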

How the data were processed

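Ovarian RNA was sequenced from 9 mice after libraries were made with a strand-specific messenger RNA kit, per the labels' protocols. Per the submitters' processing notes, reads were handled with Cuffdiff 2.2.1.3, Cufflinks 2.2.1.0, TopHat2 2.1.0 and Trimmomatic 0.32.3 on build mm10. Per the file headers, the authors deposited FPKM per gene and group with a lower and an upper bound and a status. The sources used here state no annotation, scaling between libraries or strand setting, and depth per library is unknown, so precision rests on the deposited bounds.

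Of 36886 RefSeq identifiers in 33450 rows, 99.2% matched RefSeq symbols of GRCm38.p6 (Python 3.11.15, pandas 2.3.3). A row was used when some group reached 1 FPKM and both groups compared were marked OK. A linear model had been planned for values per animal; with 1 value per group, the planned rule without a test was used. The median of each list's members is to be set beside that of all protein-coding rows. That reference was -0.01 in HFOB and 0.00 in HFLN against control for every list.

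Members and lists were chosen with earlier results of these data known. Named were all members, the 2 widest of each list against control, passing genes and the 6 patterns nearest to Edn2. Pgr, Hif1a, Arnt, Nr5a2, Lhcgr, Ovgp1, Krt19, Cyp11a1, Ptch1, Acta2, Cd68 and the neighbours of Edn2 were named after their values were seen. The same holds for Ptx3, Star, Ereg, Areg, Ptgs2, Has2, Btc, Pdk1, Car9 and P4ha1. Alternatives covered the pseudocount, the filter, scaling, interval width, the fold and the choice of row.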

Additional observations from a re-analysis of the deposited data

How the results depend on the processing

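Edn2 passed against control in HFOB and in HFLN under all 6 alternatives run on it, with log2 folds from -4.42 to -3.98 in HFOB and from -3.95 to -3.64 in HFLN. Most of these alternatives could not have removed its call. Dropping the filter, narrowing the intervals and asking no fold only loosen the rule. A smaller pseudocount widens the Edn2 fold, and its control value lies far above 5 FPKM. Only the rescaling could have counted against it. No other member passed under any alternative. All 123 member values computed under alternatives kept their call; the sign differed for Ednra alone, which lay between -0.01 and 0.05 in HFOB and between -0.01 and 0.01 in HFLN against control. Edn1 and Edn3 fall out under the filter of 5 FPKM, which they do not reach. Rescaling the groups moved log2 folds by at most 0.0097.

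Counts over the table moved more. With intervals of 0.5 times the deposited width, 143 rows passed in HFOB against control (45 higher, 98 lower) instead of 62 (16 and 46), 150 in HFLN against control (38 higher, 112 lower) instead of 48 (11 and 37), and 118 in HFOB against HFLN (56 higher, 62 lower) instead of 33 (19 and 14). The filter of 5 FPKM left 10 higher rows in HFOB and 5 in HFLN against control, and 9 lower rows in HFOB against HFLN, since fewer rows were considered. No paired analysis was possible because the table holds 1 value per group, and for the same reason no animal could be left out. Averaged over the 3 groups, the bounds were widest for Edn2, followed by Edn1, Edn3 and the Ece2 row, which limits what can be seen for these most.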
